A study of Mus musculus with 4 samples.

Results

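Thbs1, Alpl and Abcb4 are 3 of 19937 genes measured on Affymetrix Mouse Gene 1.0 ST arrays of mouse pro-B cells. They were chosen by their log2 values, because at each of them the array of replicate 1 lay far from the other 3 arrays. All probe sets whose only gene symbol in the platform's annotation was one of these names were taken, which gave 3 probe sets, 1 for each gene, of 21640 with 1 symbol and 34760 in all. The study concerned mice with a transgene of the homeobox gene NKX2-3. Only its bone marrow pro-B cells from wild-type mice, hybridized to 4 arrays, were analysed here. The paper describes a sort of pro-B cells from C57BL/6 mice as B220 low and c-Kit+, but does not name these arrays there. The 4 arrays form 1 group, called replicates 1 to 4. The labels give neither the ages of the mice and sexes nor whether a replicate was a mouse of its own, so what the spread between arrays stands for is not known. The values are log2 intensities after RMA, a method that corrects the background of arrays and normalizes them together, so that a difference of 1 is a 2-fold difference in intensity.

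Each pair of arrays had a Pearson correlation of 0.986 to 0.989 over the probe sets, which are not independent replicates. Xist, the non-coding RNA of the inactive X chromosome, is made in female cells and was at 5.48 on the array of replicate 3 and between 13.04 and 13.17 on the other arrays. Replicate 3 thus differed from the others as the sexes do and was not a repeat of the same RNA, and it is 1 of the 3 arrays that replicate 1 is set against. The values of the 3 genes without it were 2.71 (Thbs1), 2.12 (Alpl) and -1.60 (Abcb4), as the log2 value of replicate 1 minus the mean of replicates 2 and 4. A background line was set on each array at the 95th percentile of 1248 probe sets for olfactory, vomeronasal or taste receptors, which pro-B cells are not known to use, and was 6.53, 6.62, 6.54 and 6.59 for replicates 1, 2, 3 and 4. Of the pro-B cell markers, 17 of 18 were above this line on all 4 arrays, but so were 14 of 14 markers of neutrophils and their precursors and 9 of 9 erythroid markers, where 63.5% of all 19937 genes were.

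Thrombospondin-1, the product of Thbs1, is a large matricellular glycoprotein that is stored in platelet granules and secreted by many activated cells. It binds CD36, CD47 and integrins and can activate latent TGF-beta. Tissue-nonspecific alkaline phosphatase, the product of Alpl, is a membrane-anchored ectoenzyme that hydrolyses pyrophosphate and pyridoxal phosphate and is best known from mineralizing bone, although it is also made by neutrophils. Abcb4, also called Mdr2, is an ATP-binding cassette transporter that moves phosphatidylcholine across the canalicular membrane of hepatocytes, and it is a close relative of the multidrug transporters Abcb1a and Abcb1b.

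Thbs1 had a log2 intensity of 11.40 on the array of replicate 1, against 8.60, 8.77 and 8.79 on those of replicates 2, 3 and 4. The array of replicate 1 was therefore 2.61 above the highest of the others and 2.68 above their mean of 8.72 ± 0.11 (SD, n = 3), which is 6.43-fold on the linear scale. Alpl had 9.95 on the array of replicate 1, against 7.88, 7.59 and 7.77 on the others. Its value there was 2.06 above the nearest other array and 2.20 above their mean of 7.75 ± 0.15 (SD, n = 3), or 4.59-fold. Abcb4 ran the other way, with 8.46 on the array of replicate 1, against 10.07, 10.11 and 10.06 on the others. It had a gap of -1.59 to the nearest other array and of -1.61 to their mean of 10.08 ± 0.026 (SD, n = 3), so that replicates 2 to 4 were 3.06-fold higher than replicate 1. All 3 genes were above the background line on all 4 arrays. These genes were chosen for this pattern and the samples form 1 group, so the differences are a description and were not tested.

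**Figure D1:**
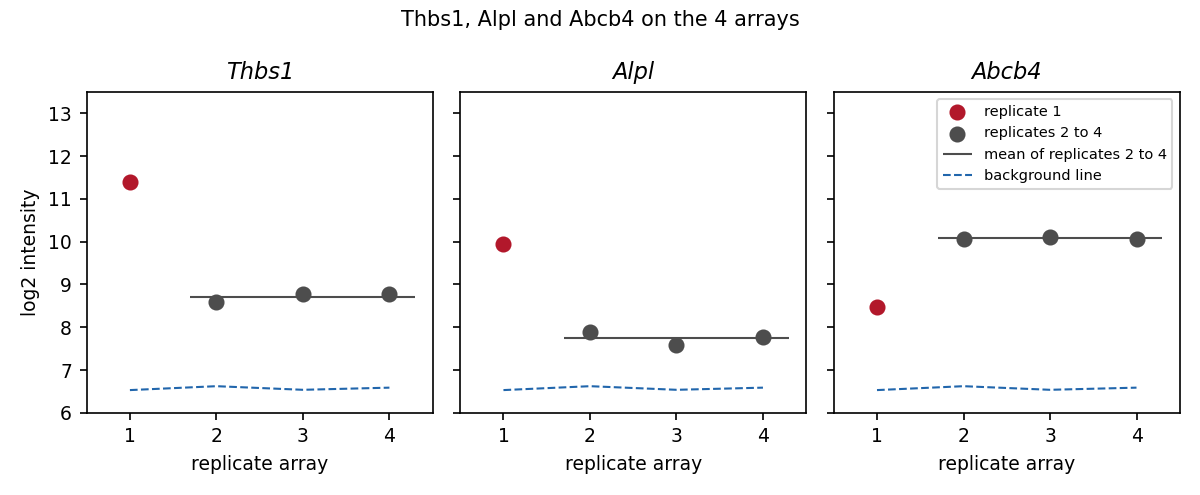
Log2 intensity (vertical axis) of Thbs1, Alpl and Abcb4 on the arrays of replicates 1 to 4 (horizontal axis); each point is 1 array, the grey bar is the mean of replicates 2 to 4 and the dashed line is the background line. Replicate 1 is at 11.40 for Thbs1 and 9.95 for Alpl, above the other arrays, and at 8.46 for Abcb4, below them.

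The choice of genes with replicate 1 far from the other arrays can favour genes whose other arrays lie close together, so their spread is a description too. It was ordinary for Thbs1, with an SD of 0.11 that was larger than in 48.1% of the probe sets with 1 symbol, and for Alpl, with an SD of 0.15 that was larger than in 68.1%. For Abcb4 the SD of 0.026 was larger than in only 4.52%. The median of all these probe sets was 0.11. Among the 3 other arrays, replicate 4 had the highest value of Thbs1, replicate 2 that of Alpl and replicate 3 that of Abcb4, and the 3 values of each gene spanned 0.19, 0.29 and 0.049.

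A gap of at least 1 log2 unit between 1 array and every other array was rare. On the array of replicate 1, 25 probe sets of 25 genes were higher by this measure (0.116% of 21640) and 47 probe sets of 47 genes were lower (0.217%), with the higher side above the background line. The array of replicate 2 had 1 higher gene (0.00462%) and 4 lower genes (0.0185%). The array of replicate 3 had 4 higher (0.0185%) and 1 lower (0.00462%), and that of replicate 4 had 1 higher (0.00462%) and 1 lower (0.00462%). A measure relative to the spread was Dixon's ratio of the gap to the whole range, at its 95% critical value. By it replicate 1 stood apart on the high side at 223 probe sets (1.03%) and on the low side at 214 (0.989%). Both sides together gave 437 probe sets for replicate 1, against 261, 213 and 246 for replicates 2, 3 and 4. Over all arrays 5.35% of the probe sets had 1 array apart, close to the 5% that chance gives. These shares are given beside the 3 genes, which were chosen by the same values. At the edge of the higher set, Gzmb (gap 1.03) and Mir103-2 (1.01) lay just inside, and Mirlet7d (0.98) and Tsc22d3 (0.98) just outside. At the edge of the lower set, Prelid2 (gap -1.01) and Asns (-1.01) lay just inside, and Myo1d (-0.9998) and Tac2 (-0.99) just outside.

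**Figure D2:**
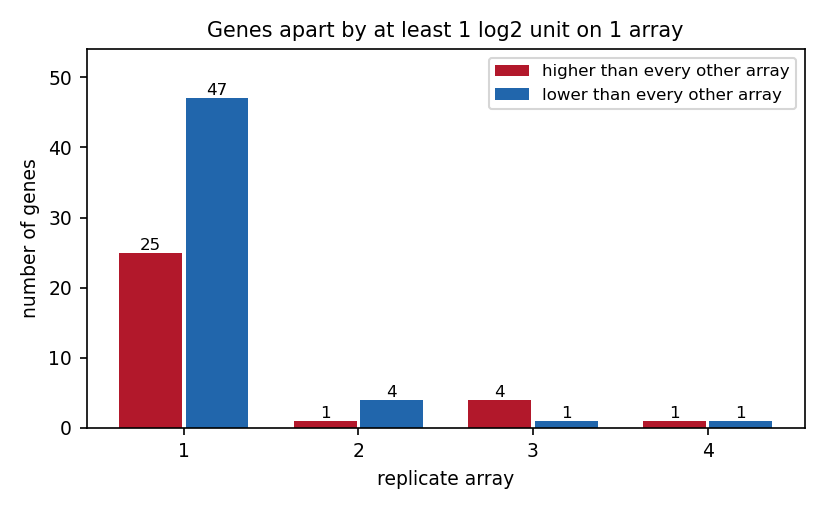
Number of genes (vertical axis) whose value on 1 array lay at least 1 log2 unit above (red) or below (blue) every other array, for the arrays of replicates 1 to 4 (horizontal axis). Replicate 1 has 25 higher and 47 lower genes, and no other array has more than 4 on either side.

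The genes that followed Thbs1 and Alpl on the array of replicate 1 included 5 microRNA genes, which were looked at as a class after their values were seen. MicroRNAs are short RNAs that are cut from hairpin precursors and pair with messenger RNAs through their seed, bases 2 to 8, and miR-142 and the miR-181 family are known from blood cells. A probe set with such a name on this array does not separate the mature form from its precursor or host transcript. The mature sequences below are shown because these genes had the profiles closest to Thbs1 and Alpl or shared their direction. They are RefSeq entries (build GRCm38.p6), with the seed in capitals.
miR-181b-5p (chr1:137966650-137966673, plus strand, from Mir181b-1, and chr2:38853845-38853868, plus strand, from Mir181b-2): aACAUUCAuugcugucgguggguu
miR-142a-5p (chr11:87756867-87756887, plus strand): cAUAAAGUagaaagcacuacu
miR-142a-3p (chr11:87756903-87756925, plus strand): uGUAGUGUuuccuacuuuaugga
miR-350-3p (chr1:176772342-176772363, minus strand): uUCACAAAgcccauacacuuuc
miR-103-3p (chr2:131288103-131288125, plus strand): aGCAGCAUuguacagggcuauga
Only the products of Mir181b-1 and Mir181b-2 share a seed among these sequences.

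Mir181b-1 had a log2 intensity of 7.80 on the array of replicate 1, against 5.13, 5.13 and 5.12 on the other arrays, where it was below the background line. Its difference is therefore one against values not above background, and its size is not a fold of expression. Mir142 had 9.97 on the array of replicate 1, against 7.28, 7.89 and 7.71 on the others. As for Thbs1, replicate 2 had the lowest value of the 4 arrays for Mir142. Mir350 had 7.36 on the array of replicate 1, against 5.39, 5.08 and 5.46. Mir181b-2, the other gene of miR-181b, had 8.16 on the array of replicate 1, against 6.42, 6.73 and 6.73. Mir103-2 had 7.34 on the array of replicate 1, against 6.33, 6.30 and 6.25. A gap of at least 1 log2 unit, with replicate 1 above the background line, is what placed these 5 in the set. That replicate 1 does not overlap the other arrays at them follows from this rule.

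Other genes of the same microRNA families did not all share this size. Mir181a-2, which lies beside Mir181b-2, had 6.76 on the array of replicate 1, against 5.96, 5.94 and 6.06 on the others. Mir181a-1, which lies beside Mir181b-1, was below the line on every array, with 4.52 on that of replicate 1 and 4.02 to 4.15 on the others. Mir181c had a shift, the value of replicate 1 minus the mean of the others, of 0.23, Mir181d one of 0.03 and Mir103-1 one of 0.23. Of 305 probe sets of microRNA genes (1.41% of those with 1 symbol), 165 had a shift above 0 (54.1%), with a median of 0.023, where 48.4% of 19937 genes had one above 0, with a median of -0.0072. On at least 1 array 113 of the 305 were above the line, 15 of them on that of replicate 1 alone. No microRNA gene was among the 47 lower genes.

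**Figure D3:**
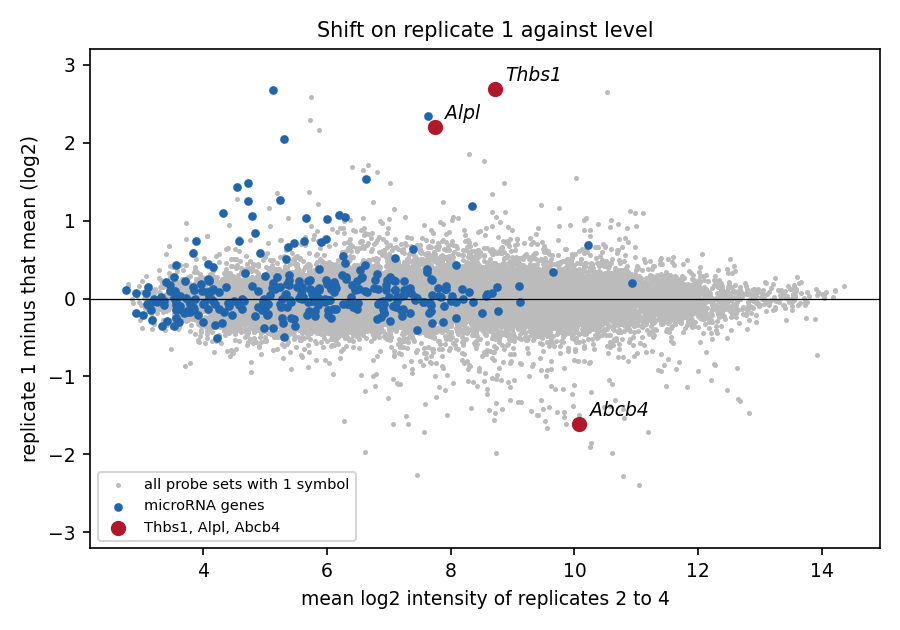
Log2 value on the array of replicate 1 minus the mean of replicates 2 to 4 (vertical axis) against that mean (horizontal axis) for all probe sets with 1 symbol (grey), microRNA genes (blue) and Thbs1, Alpl and Abcb4 (red). Thbs1 lies at 2.68, Alpl at 2.20 and Abcb4 at -1.61.

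Likeness of pattern was measured as the root mean square difference between 2 genes' log2 values over the 4 arrays, after each gene was centred on its own mean. A smaller value means a closer pattern, in log2 units. The candidates were the 15261 probe sets with 1 symbol that were above the background line on at least 1 array. The 5 closest to Thbs1 were Mir181b-1 (0.079), Adgrf1 (0.19), Mir142 (0.22), H3c15 (0.26) and Alpl (0.27). Those closest to Alpl were Adgrf1 (0.095), Mir350 (0.10), H3c15 (0.19), Mir181b-1 (0.23) and Egfl6 (0.25). Adgrf1, an adhesion G protein-coupled receptor, had 8.02 on the array of replicate 1, against 5.73, 5.66 and 5.78 on the others. H3c15, a histone H3 gene with near-identical copies that a probe set may not separate, had 8.33 on the array of replicate 1, against 6.01, 5.47 and 5.74. Egfl6, a secreted protein with EGF repeats, had 8.24 on the array of replicate 1, against 6.72, 6.55 and 6.47. Adgrf1 and H3c15 were below the line on the arrays of replicates 2 to 4, as were Mir181b-1 and Mir350, whereas Thbs1 and Alpl were above it on every array, so the likeness to these genes rests partly on values not above background. Of the 25 higher genes, 9 were above the line on all 4 arrays and 9 on that of replicate 1 alone.

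Some of the higher genes varied more among the other arrays than Thbs1 and Alpl, whose other arrays spanned 0.19 and 0.29. Rag1 and Rag2, the neighbouring genes of the V(D)J recombinase, were higher on the array of replicate 1 but also differed among the other arrays. Rag1 had 10.15 on the array of replicate 1, against 8.25, 8.89 and 7.74, and Rag2 had 8.39, against 6.34, 6.99 and 6.67. Mmrn1, multimerin-1, had 8.03 on the array of replicate 1, against 5.66, 6.72 and 5.21. The other arrays spanned 1.16 for Rag1, 0.65 for Rag2, 1.51 for Mmrn1 and 0.61 for Mir142, against a median of 0.38 over the 25 genes. Replicate 3 was the highest of the other 3 arrays for 13 of the 25 genes, Rag1, Rag2 and Mmrn1 among them, but not for Thbs1 or Alpl. Il7r, the alpha chain of the interleukin-7 receptor, lies between Capsl and Spef2, which were both in the higher set. It had 11.17 on the array of replicate 1, against 10.20, 10.30 and 9.98, a gap of 0.87. Spef2 has 22 probe sets, of which replicate 1 was the highest array on 21 and passed the gap on 2. Of the 22, 9 were below the line on every array. Among these was a probe set that passed the gap, with 5.83 on the array of replicate 1, against 4.46, 4.77 and 4.40.

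**Figure D4:**
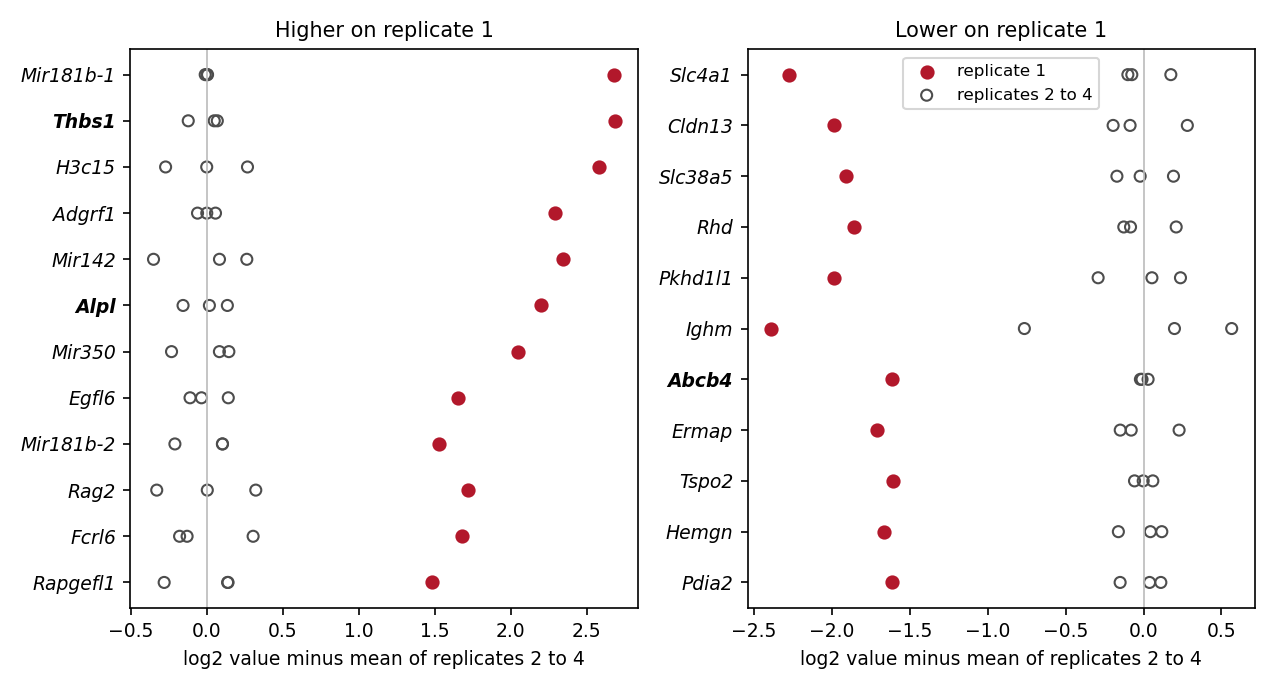
Log2 value minus the mean of replicates 2 to 4 (horizontal axis) for Thbs1, Alpl and the 10 other genes with the largest gap above the other arrays on replicate 1 (left), and for Abcb4 and the 10 with the largest gap below them (right), ordered by the gap. Filled red points are replicate 1 and open points are replicates 2 to 4; the open points of Mir181b-1 and Abcb4 nearly coincide.

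Of the 47 genes that were lower on the array of replicate 1, 6 belong to the list of erythroid markers. The 5 genes closest in pattern to Abcb4 were Tspo2 (0.056), Epb42 (0.096), Aldh1a7 (0.10), Pdia2 (0.11) and Ces2g (0.11), on the same measure. Tspo2, a translocator protein of erythroid cells, had 8.26 on the array of replicate 1, against 9.93, 9.81 and 9.87 on the others. Epb42, protein 4.2 of the red-cell membrane skeleton, had 6.91 on the array of replicate 1, against 8.36, 8.36 and 8.25. Pdia2, a protein disulphide isomerase, had 5.70, which was below the line, against 7.35, 7.16 and 7.42, and Ces2g, a carboxylesterase, had 9.26, against 10.97, 10.71 and 10.73. Aldh1a7, an aldehyde dehydrogenase, had 5.78, against 7.35, 7.38 and 7.12. Its neighbour and close homologue Aldh1a1 was in the lower set too, with 8.07 on the array of replicate 1, against 9.61, 9.33 and 9.52, and their signals may not be fully separate.

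The lower set held red-cell membrane proteins such as Slc4a1, the anion exchanger, with 8.52 on the array of replicate 1, against 10.97, 10.72 and 10.69, and Rhd, the Rhesus protein, with 8.41, against 10.47, 10.18 and 10.14. It also held Ermap, Kel and Rhag, which carry or support blood group antigens, the membrane skeleton genes Sptb and Ank1, the transcription factors Klf1 and Gata1, and Alas2, the first enzyme of haem synthesis in erythroid cells. All 9 erythroid markers with a probe set had their lowest value on the array of replicate 1, where 29.3% of all genes did. Their median shift was -1.31, with a range of -2.27 to -0.72, and 6 of the 9 passed the gap. The list was chosen with earlier results of these data known, so these counts are a description and no independent support. The mean log2 value of these markers was 8.94 on the array of replicate 1 and 10.44, 10.29 and 10.27 on those of replicates 2 to 4, and all 9 stayed above the line on every array. In bulk samples fewer cells of a type and less RNA per cell cannot be told apart, and the part of the erythroid markers in the value of Abcb4 was not tested. Replicate 2 was the highest of the other arrays for 39 of the 47 lower genes. Replicate 3 was the highest for 5, among them Abcb4 and the erythroid markers Klf1 and Alas2. The values of Abcb4 on replicates 2 to 4 spanned only 0.049, so their order says little.

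The lower set was not only erythroid by name. Ighm, the heavy-chain gene of IgM, had 1 probe set with 8.65 on the array of replicate 1, against 11.61, 11.24 and 10.28. Its other 2 probe sets had 10.69, against 11.56, 11.34 and 11.28, and 11.13, against 11.07, 10.50 and 10.72. The probe sets of Ighm therefore disagree in direction.

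The relatives of the 3 genes mostly had small differences. Of the thrombospondins, Thbs2, Thbs3, Thbs4 and Comp had shifts of -0.10 to 0.06 on the array of replicate 1, with a median of -0.017 over 4 genes and none past the gap, and 2 of the 4 were below the line on every array. Of the alkaline phosphatases other than Alpl, the 3 intestinal and placental types Alpi, Akp3 and Alppl2 had shifts of -0.25, -0.19 and 0.10, and 2 of the 3 were below the line on every array. Among the 9 other ABCB transporters with a probe set the median shift was -0.13. Abcb6, a porphyrin transporter, had 7.56 on the array of replicate 1, against 8.40, 8.39 and 8.59, and Abcb10, a mitochondrial transporter that is needed for haem synthesis in erythroid cells, had 8.45, against 9.30, 9.31 and 9.32. For both, replicate 1 was the lowest array, as it was for 29.3% of all genes. Abcb1a and Abcb1b, which precede Abcb4 on chromosome 5, had their lowest value on other arrays. Abcb1a had 7.41 on the array of replicate 1, against 7.13, 7.04 and 7.32, and Abcb1b had 8.24, against 8.11, 8.30 and 8.25. Crot, on its other side, had 9.87, against 9.75, 9.79 and 9.73.

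Partners of the proteins were looked at from lists of receptors, substrates and targets, which were chosen with earlier results of these data known. Of 14 receptors and partners of thrombospondin-1, none passed the gap, replicate 1 was the highest array for 9 of 14, where it was for 28.3% of all genes, and the median shift was 0.15. Cd36, its scavenger receptor, came closest, with 7.86 on the array of replicate 1, against 6.92, 6.93 and 6.74. Cd47, the other main receptor, had 12.58, against 12.51, 12.54 and 12.67, which overlap. Tgfb1 had 11.89, against 11.76, 11.73 and 11.60, and Tgfbr2 had 9.75, against 9.42, 9.57 and 9.02. Among 19 serum response, TGF-beta and YAP target genes, a class to which Thbs1 itself belongs, the median shift was 0.05 with a range of -0.27 to 0.54, and none passed the gap. Smad7, the inhibitory Smad, had the highest shift of that list, with 8.83 on the array of replicate 1, against 8.35, 8.22 and 8.30. Rasgrp1, a gene next to Thbs1 on chromosome 2, had 10.31 on the array of replicate 1, against 9.61, 9.54 and 9.09, and Fsip1, on its other side, had 6.34, against 6.20, 6.46 and 6.44.

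Of 12 genes of phosphate and pyrophosphate handling, the setting in which Alpl acts, 5 had a shift above 0 and 7 below it, with a median of -0.15. Nt5e, the ectonucleotidase CD73 that acts on AMP, had 7.72 on the array of replicate 1, against 7.25, 7.28 and 7.20. Phospho1, a phosphatase of matrix vesicles, had 7.62, against 7.98, 8.21 and 8.35, and Slc20a1, a phosphate transporter, had 10.41, against 10.58, 10.57 and 10.59. The genes beside Alpl on chromosome 4, Rap1gap and Ece1, had shifts of -0.15 and 0.07. Of 13 genes of phospholipid and bile lipid transport around Abcb4, 7 had a shift above 0 and 6 below it, with a median of 0.04. Abcb11, the bile salt pump that works beside Abcb4 in the liver, had 5.55 on the array of replicate 1, against 5.73, 5.65 and 5.35, below the line on every array.

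Thbs1 and Alpl are also made by other marrow cells, so the markers of these were set beside them. The 7 megakaryocyte and platelet markers with a probe set had a median shift of 0.28, or 0.093 without replicate 4, with 6 above 0, and their mean log2 value was 8.57 on the array of replicate 1 and 8.47, 8.20 and 7.71 on those of replicates 2 to 4. Ppbp, a platelet chemokine, had 11.57 on the array of replicate 1, against 10.95, 10.26 and 8.87, and Clec1b, a platelet receptor, had 7.26, against 6.39, 6.28 and 6.15. Pf4, platelet factor 4, had 8.71, against 8.63, 8.60 and 7.90, and Gp9 had 8.40, against 9.16, 8.57 and 8.35, within the range of the others. Of 15 stromal and osteolineage markers, 9 were below the line on every array and 6 above it on all 4, and the median shift was -0.07. Sp7 and Ibsp, 2 osteoblast genes, were among those below the line throughout. Col1a1, Col1a2, Col3a1, Vcam1, Pdgfrb and Sparc were those above it, and Bglap, Runx2 and Spp1 had no probe set of 1 symbol. The 10 endothelial markers had a median shift of 0.05. The 14 neutrophil markers had one of -0.20, or -0.083 without replicate 3, with 11 below 0 and a mean log2 value of 11.34 on the array of replicate 1 and of 11.12, 11.74 and 11.70 on the others, and the 10 monocyte and macrophage markers had one of 0.15. The part of these cells in the values of Thbs1 and Alpl was not tested.

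Markers of B-lineage cells were set beside the 3 genes in the same way. Of 18 pro-B cell markers, 15 had a shift above 0, where 48.4% of all genes had one, and 2, Rag1 and Rag2, passed the gap, with a median of 0.58 over the list. All 10 markers of pre-B and immature B cells had one above 0 and none passed the gap, with a median of 0.66, or 0.45 without replicate 4. Their mean log2 value was 10.86 on the array of replicate 1 and 10.39, 10.39 and 9.88 on those of replicates 2 to 4, so replicate 4 lay below replicates 2 and 3. Kit, the receptor of the sort that the paper describes, had 10.46 on the array of replicate 1, against 10.83, 10.81 and 10.80. The 8 housekeeping genes with a probe set had a median shift of -0.05 and a range of -0.18 to 0.12. These lists too were chosen with earlier results of these data known, and the part of these B-lineage genes in the values of the 3 genes was not tested.

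**Figure D5:**
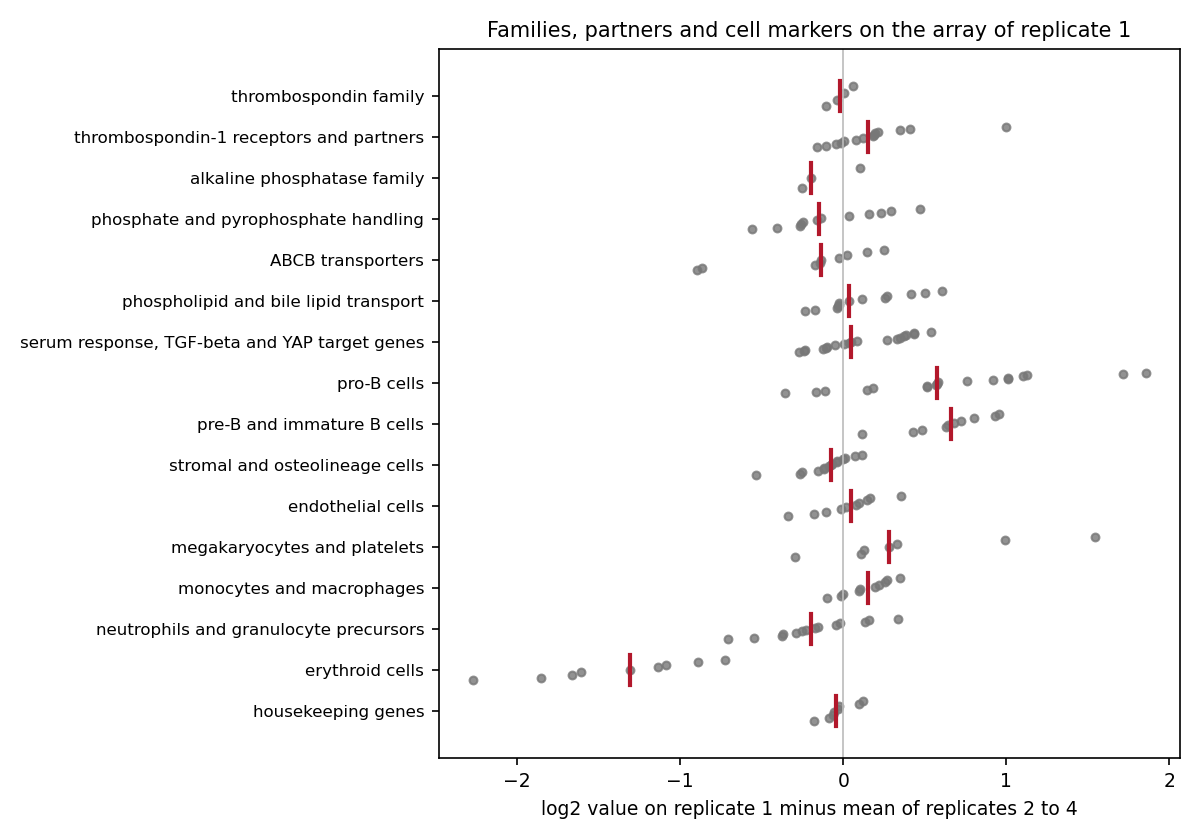
Log2 value on the array of replicate 1 minus the mean of replicates 2 to 4 (horizontal axis) for the genes of 16 lists (vertical axis) without Thbs1, Alpl and Abcb4; points are genes and red bars are medians. The erythroid median is -1.31, that of the pro-B list is 0.58, that of the list of later B cells is 0.66, and the other medians lie between -0.20 and 0.28.

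Promoter sequences from RefSeq (build GRCm38.p6) were available for Alpl and Abcb4 and run from 250 bases before the start site to 50 after it. They are shown because each set of genes was chosen by the same difference on the array of replicate 1, and they carry the matched letters in capitals. Alpl has an upstream and a downstream start, and its single probe set does not say which was used. The motifs searched on both strands were the GATA site (letters AGATAA), the GC box (letters GGGCGG), the CACC box (letters CCNCNCCC), the inverted or direct CCAAT box, the TATA box (letters TATAAA), the E box (letters CAGGTG) and the AP-1 site (letters TGANTCA), and matches of the GC and CACC boxes can overlap.
Abcb4 (chr5:8893471-8893770, plus strand): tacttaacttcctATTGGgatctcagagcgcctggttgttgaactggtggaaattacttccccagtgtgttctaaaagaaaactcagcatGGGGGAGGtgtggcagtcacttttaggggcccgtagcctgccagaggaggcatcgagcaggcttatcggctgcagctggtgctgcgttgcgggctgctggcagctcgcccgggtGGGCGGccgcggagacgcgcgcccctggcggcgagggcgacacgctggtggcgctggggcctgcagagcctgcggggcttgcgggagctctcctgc
Alpl, upstream start (chr4:137796335-137796634, minus strand): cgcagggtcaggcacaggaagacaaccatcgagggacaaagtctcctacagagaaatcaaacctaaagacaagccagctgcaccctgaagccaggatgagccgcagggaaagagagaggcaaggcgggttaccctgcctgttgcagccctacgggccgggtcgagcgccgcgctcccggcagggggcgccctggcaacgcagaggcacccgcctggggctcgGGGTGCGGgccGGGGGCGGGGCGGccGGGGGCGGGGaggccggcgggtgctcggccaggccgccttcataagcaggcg
Alpl, downstream start (chr4:137766426-137766725, minus strand): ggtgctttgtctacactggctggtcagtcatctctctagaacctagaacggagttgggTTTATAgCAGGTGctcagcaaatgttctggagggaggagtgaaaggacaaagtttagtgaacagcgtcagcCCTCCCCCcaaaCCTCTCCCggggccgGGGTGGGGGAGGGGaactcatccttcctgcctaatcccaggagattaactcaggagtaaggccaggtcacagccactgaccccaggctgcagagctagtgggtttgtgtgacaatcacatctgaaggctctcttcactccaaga
The upstream Alpl window is 70.0% G and C and holds 3 GC boxes, the downstream window is 54.3% G and C and holds none, and that of Abcb4 is 64.0% G and C with 1 GC box. None of the 3 windows holds the letters of the GATA site or of the AP-1 site. The GATA site was found in 15 of 42 promoters of the lower genes (35.7%), in 0 of 17 of the higher genes and in 11.2% of all 32851 promoters of the table, where a gene can have several promoters (35 lower and 16 higher genes matched). The GC box was found in 42.9% of the promoters of the lower genes, in 41.2% of those of the higher genes and in 35.7% of all. These shares are a description of the letters in these windows and were not tested.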

How the data were processed

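RNA of 4 samples of pro-B cells was hybridized to Mouse Gene 1.0 ST arrays, and the authors deposited log2 intensities per probe set, made with RMA. The paper describes a filter on probe sets of low expression, but the sources used here do not give its threshold. They also do not name which arrays were normalized in 1 run. The deposited values used here still held low ones, down to 2.27 on the array of replicate 3. On each array 66.4% to 67.7% of the probe sets with 1 symbol lay above the background line. The counts of all probe sets and genes are therefore not of expressed ones alone. Columns were matched by name. Of 34760 probe sets, 21640 had 1 symbol in the platform's annotation, 1321 several and 11799 none listed, and 21553 of the first matched RefSeq. Where a listed gene had several probe sets, that of the highest mean stood for it.

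The value of replicate 1 was set against replicates 2 to 4, as a shift from their mean and as a gap to the nearest of them. A gap counted from 1 log2 unit, with the higher side above the background line. No test was made, since the samples are 1 group and the genes were chosen by these values. The small number of arrays limits the precision. Named genes were the 3 genes, the 10 with the largest gap on each side, the 5 closest in pattern to each and the family and partner lists, and others were chosen after their values were seen. The genes and the 17 lists were chosen with earlier results of these data known. Alternatives were quantile normalization, cyclic loess, median centring, the median or nearest of the other arrays, other lines and gaps, all probe sets and leaving out arrays in turn. The counting was checked on simulated data. The alternatives used limma 3.58.1 in R 4.3.3, and all else was computed in Python 3.11.15 with pandas 2.3.3 and numpy 2.4.6.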

Additional observations from a re-analysis of the deposited data

Results flagged for a closer look

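Of 130 named genes, 30 had 1 array that stood apart from the other 3 by Dixon's ratio at its 95% critical value, a measure that chance passes in about 1 of 20 groups. Many of these genes were named because replicate 1 stood apart, so their number is not evidence of anything further. On the array of replicate 1 there were 12 high and 14 low values.

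Thbs1 was high on that array at 11.40, Alpl at 9.946, and Abcb4 low at 8.463. Among the microRNA genes, Mir181b-1 was high at 7.805, Mir350 at 7.357, Mir103-2 at 7.340, Mir181a-2 at 6.757 and Mirlet7d at 6.687. The other high values were those of Egfl6 at 8.238, Adgrf1 at 8.019, Nt5e at 7.718, Gzmb, a cytotoxic granule protease, at 7.304 and Camk1g, a calmodulin-dependent kinase, at 7.089. Above the background line on the array of replicate 1 alone were these microRNA genes, Adgrf1, Gzmb and Camk1g.

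Of genes known from erythroid cells, Slc4a1 was low at 8.518, Rhd at 8.409, Tspo2 at 8.262, Hemgn at 7.891, Sptb at 7.863, Alas2 at 6.956 and Epb42 at 6.914. Abcb10 was low at 8.448, Ces2g at 9.262, Aldh1a7 at 5.780, Pdia2 at 5.698, Slc20a1 at 10.41 and Kit at 10.46. The difference of Slc20a1 was small, with 10.58, 10.57 and 10.59 on the other arrays.

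On the array of replicate 3, Xist was low at 5.477 and Abca7, a lipid transporter, at 10.02. On that of replicate 4, Ppara, a nuclear receptor of fatty acid metabolism, was high at 6.292 and Pf4 low at 7.900. Ppara was below the background line on every array. The causes were not tested.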

How the results depend on the processing

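The shift of Thbs1 ranged from 2.61 to 2.72, that of Alpl from 2.06 to 2.27 and that of Abcb4 from -1.65 to -1.59 over the alternatives. Since the genes were chosen for their distance from every other array, these ranges say little about stability. Abcb4 had -1.64 with quantile normalization and -1.65 with median centring, a move larger than its spread over replicates 2 to 4. The shift rests on replicate 1, and without it there is no value.

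Against 25 higher and 47 lower genes, a gap of 0.5 gave 180 and 165, a gap of 2 gave 6 and 1, and the difference from the mean of the other arrays gave 50 and 77. Leaving out 1 of replicates 2 to 4 gave 26 to 39 higher genes, 39 of them without replicate 3, and 56 to 63 lower genes, a wider rule by construction. The other alternatives gave 22 to 35 and 45 to 67.

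With median centring the medians were -0.0508 for the thrombospondin family, 0.1189 for the receptors and partners, -0.2289 for alkaline phosphatases, -0.1837 for phosphate handling and -0.1689 for ABCB transporters. The last was -0.1708 with quantile normalization and -0.1617 with cyclic loess. With only genes above the line, phospholipid transport had 0.1145 and stromal markers -0.1171. Leaving out arrays gave 0.1064 to 0.1578 for receptors and partners, -0.1543 to -0.1191 for phosphate handling and -0.1232 to -0.0838 for ABCB transporters, 0.0934 to 0.3711 for megakaryocyte markers and -0.3125 to -0.0833 for neutrophil markers. The causes of these moves were not tested.

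No paired analysis was possible because the 4 arrays are of 1 group, with nothing to pair. Values near the background line say little about the gene's level, and 9 of the 25 higher genes were above it on 1 array alone.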

Other observations

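Several genes outside the lists and families also differed on the array of replicate 1. Gfra2, a co-receptor for neurturin, had 10.29 on that array, against 8.25, 9.01 and 8.34 on the others. Akap12, a scaffold protein of protein kinase A, had 10.34, against 8.85, 9.21 and 8.53. Both were above the background line on every array.

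Some microRNA genes graded across the arrays without passing the gap. Mir15a had 9.54 on the array of replicate 1 and 7.82, 9.13 and 8.10 on the others, and Mir18 had 7.28 on the array of replicate 1 and 5.75, 6.88 and 5.96 on the others. For both, replicate 3 was the nearest to replicate 1, as it was for Rag1, Rag2 and Mmrn1. These genes were chosen after their values were seen.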
